A study of Mus musculus with 5 samples.

Results

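Regulatory T cells with a tissue-repair profile were followed in the mouse kidney through 10 genes, namely Foxp3, Ikzf2, Ikzf4, Areg, Il10, Il1rl1, Il2ra, Tnfrsf9, Klrg1 and Neb. The genes were chosen by symbol, with earlier results of these data known, and all 10 were among the 32285 genes listed for every library. Kidneys came from wild-type C57BL/6 mice, all males and 8 to 10 weeks old, in a model of injury by aristolochic acid I (AAI), a plant toxin that damages the proximal tubule. AAI was injected into the peritoneum at 3 mg/kg every 3 days over 2 weeks, and the AKI group (acute kidney injury, 2 libraries) was taken at week 2. The CKD group (chronic kidney disease, 2 libraries) was taken at week 4 after AAI had been withdrawn, and the control group (1 library, dose 0) was taken at week 0 from mice given vehicle. The methods give sample sizes of 1, 2 and 2 that match the libraries, and the labels do not tie a library to 1 animal, so the p-values measure only the spread between these libraries, which may be technical. With 1 library, the control was described and entered no test between groups.

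Foxp3 is the transcription factor that sets the regulatory T cell programme, and its partners Ikzf2 (Helios) and Ikzf4 (Eos) are zinc finger proteins of the Ikaros family. Regulatory T cells outside lymphoid organs are known for a repair role in which the alarmin IL-33, released by damaged tissue, acts on its receptor ST2 (encoded by Il1rl1) and the cells release amphiregulin (Areg), a growth factor for epithelium. They also depend on IL-2 through CD25 (Il2ra), secrete the anti-inflammatory cytokine IL-10, and can carry the co-stimulatory receptor 4-1BB (Tnfrsf9) and the cadherin receptor KLRG1. Neb encodes nebulin, a giant protein of the thin filament of skeletal muscle, and a role for it in T cells is not part of that textbook picture.

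Cells were kept at up to 30% mitochondrial UMIs (unique molecular identifiers, single captured RNA molecules) and at least 200 genes, which left 53718 of 72896 barcodes with 55148173 to 79036670 UMIs per library. The control stood apart, with 38.7% of its barcodes above that mitochondrial limit where the others had 11.1 to 12.7%. It also shared 91 of its 8496 kept barcodes with CKD 2 cells that held more than 20 times the UMIs, and 28 of these were T cells, but 0 were Foxp3-positive. Clusters were named by marker genes that held none of the 10 members, and 10 of 45 clusters with 22956 cells were T lymphocyte-like. A T lymphocyte-like cell was called Foxp3-positive when it held at least 1 Foxp3 UMI, which gave 1254 cells (16 control, 325 AKI 1, 461 AKI 2, 153 CKD 1 and 299 CKD 2 cells) against 21702 other T cells. Levels are given as UMIs of a gene per 10000 UMIs summed over the cells of a group, and with counts from the 3′ end they were compared for the same gene between cells, never between genes.

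The label of the gated cells was checked against markers that had no part in the gate. Ctla4, an inhibitory receptor of regulatory T cells, stood at 10.9 per 10000 in the control, 8.01 and 8.24 in AKI, and 5.81 and 7.17 in CKD, whereas other T cells held 0.661 to 2.35. A single cluster, led by Tnfrsf4, Ctla4, Tnfrsf18 and Izumo1r, held 74.8% of all gated cells, and 53.0% of its 1769 cells were Foxp3-positive. The remainder were spread over other T cell clusters, with 13.7% in the cycling cluster, and the share inside the leading cluster was lowest in CKD 1 at 57.5%. Between 13.7 and 16.3% of gated cells in the AKI and CKD libraries also held a Cd8a or Cd8b1 UMI. A Cd4 UMI was seen in 40.9 and 38.2% of gated cells in AKI and 43.8 and 56.2% in CKD. Of all 1254 gated cells, 605 held a single Foxp3 UMI, as did 92 of the 153 in CKD 1. Gated cells were deeper than other T cells in the AKI and CKD libraries, with medians of 4218 to 6858 UMIs against 3518.5 to 5584. A deeper cell has more chance to show its Foxp3 UMI, so results were also computed after every cell had been thinned to 1500 UMIs.

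To show the regulatory sequence of members on which the results turn, the 250 bases before the annotated start are printed for Areg, Il2ra and both starts of Il1rl1 (RefSeq, mouse GRCm38.p6, plus strand, written 5′ to 3′). Capitals mark the forkhead core GTAAACA, the letters that factors of the Foxp3 family are known to favour, searched on both strands. RefSeq entries were found for 5 of the 10 members (Foxp3, Areg, Il1rl1, Il2ra and Tnfrsf9), with 8 starts in all.
Areg, chr5:91139349-91139598: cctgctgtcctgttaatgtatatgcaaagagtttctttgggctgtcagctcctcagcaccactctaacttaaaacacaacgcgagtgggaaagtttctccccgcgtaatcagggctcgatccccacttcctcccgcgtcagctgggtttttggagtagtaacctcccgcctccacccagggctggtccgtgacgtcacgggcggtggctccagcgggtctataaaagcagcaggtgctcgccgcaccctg
Il1rl1, first start, chr1:40429320-40429569: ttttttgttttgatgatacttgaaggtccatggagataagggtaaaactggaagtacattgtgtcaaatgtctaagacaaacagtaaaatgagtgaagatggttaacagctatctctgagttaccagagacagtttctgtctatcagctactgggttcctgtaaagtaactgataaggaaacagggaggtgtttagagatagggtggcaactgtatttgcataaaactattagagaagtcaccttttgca
Il1rl1, second start, chr1:40439379-40439628: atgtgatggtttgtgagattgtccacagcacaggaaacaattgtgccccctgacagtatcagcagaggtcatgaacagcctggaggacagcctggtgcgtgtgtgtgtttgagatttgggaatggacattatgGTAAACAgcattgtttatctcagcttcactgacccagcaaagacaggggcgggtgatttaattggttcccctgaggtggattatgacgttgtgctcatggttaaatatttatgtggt
Il2ra, chr2:11642542-11642791: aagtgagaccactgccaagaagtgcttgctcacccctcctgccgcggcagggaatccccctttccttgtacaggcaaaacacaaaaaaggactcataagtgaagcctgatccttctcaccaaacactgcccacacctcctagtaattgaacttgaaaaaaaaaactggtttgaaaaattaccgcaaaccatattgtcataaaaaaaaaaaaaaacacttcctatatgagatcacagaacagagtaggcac
The core lay in 1 of the 8 member windows, on the plus strand with its leading base 117 bases before the second start of Il1rl1. Among all 32851 mouse promoter windows of that length, 3.17% held it on either strand. GC content was 57.2% in the Areg window, 37.6 and 46.4% in those of Il1rl1 and 42.4% in that of Il2ra, against a median of 52.4% over all windows. A match is only a match of letters, and reads from the 3′ end do not tell which start a transcript used.

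The share of T cells that were Foxp3-positive was lowest in the control and highest in AKI 2. Both CKD libraries lay below both AKI libraries, CKD 2 only narrowly. It was 1.37% in control cells (95% exact binomial interval 0.786 to 2.22), 5.58% in AKI 1 (5.0003 to 6.20), 8.23% in AKI 2 (7.52 to 8.98), 3.11% in CKD 1 (2.65 to 3.64) and 5.49% in CKD 2 (4.90 to 6.13). These intervals cover counting error only. The AKI and CKD libraries averaged 6.90 and 4.30%, a difference of -2.60 percentage points with a pooled SD of 1.78 (n = 2 each). With 2 libraries against 2, an exact permutation test cannot go below p = 0.333, so no test was made, and AKI 1 and CKD 2 lay within each other's interval.

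Depth moved these shares. Thinned to 1500 UMIs per cell, they were 0.998% in the control, 2.78 and 4.19% in AKI, and 1.2996 and 2.18% in CKD. Both CKD libraries still lay below both AKI libraries. With at least 2 Foxp3 UMIs required, they were 0.686%, 2.62 and 4.43%, and 1.24 and 3.29%, and CKD 2 lay above AKI 1. Over T cells with a Cd4 and no Cd8a or Cd8b1 UMI, they were 2.41%, 10.2 and 14.1%, and 5.99 and 8.51%, with both CKD libraries below both AKI libraries and a difference of -4.89 percentage points. Free RNA can set a floor for such shares. Endothelial-like cells, which should lack Foxp3, held a Foxp3 UMI in 0.142% (control), 0.969 and 0.973% (AKI), and 0.366 and 0.669% (CKD). Their median depths were 2450 to 5903 UMIs, and the source of these Foxp3 UMIs was not tested. All 5 T cell shares lay above the endothelial share of their own library. In single-cell suspensions a larger share can reflect more regulatory T cells or fewer other T cells, which a share cannot tell apart.

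**Figure D1:**
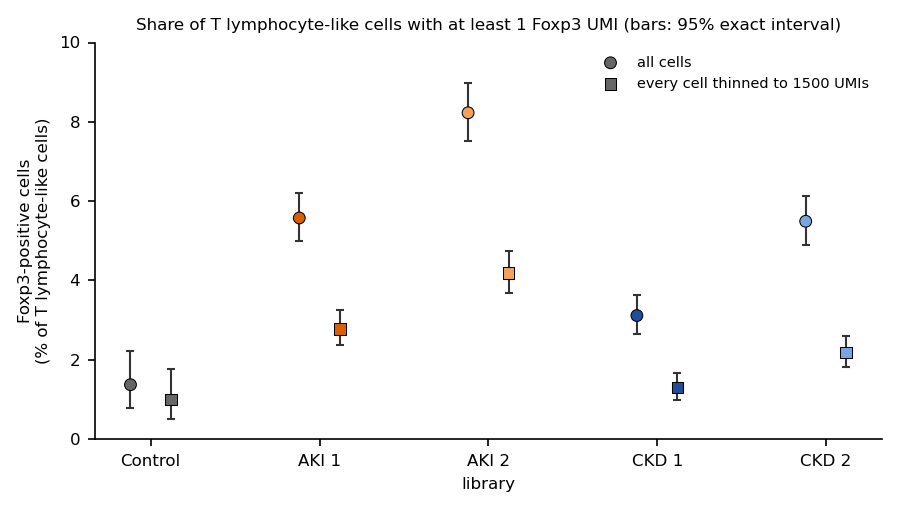
Share of T lymphocyte-like cells with at least 1 Foxp3 UMI (vertical axis, percent) in each library (horizontal axis), for all cells (circles) and after thinning every cell to 1500 UMIs (squares). Bars are 95% exact binomial intervals for counting error. The 5 shares run from 1.37 to 8.23% unthinned and from 0.998 to 4.19% thinned, with the control lowest and AKI 2 highest in both.

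Foxp3-positive cells were compared with other T cells of the same libraries to describe how far the repair genes go with Foxp3. All 9 other members were higher in Foxp3-positive cells, by 5.98-fold (Ikzf2) to 11.9-fold (Il2ra), and each was higher in 4 of 4 libraries. How many of all genes tested were higher in 4 of 4 libraries was not counted. The members had been chosen with earlier results of these data known, so their p-values are no independent test of the choice. The test was edgeR's quasi-likelihood test on UMIs summed per library, with the library as a block and Benjamini-Hochberg adjustment over 12279 genes, and only the AKI and CKD libraries entered because the control had fewer than 20 gated cells. At this threshold (adjusted p under 0.05) 36.3% of all genes tested were called, 20.3% higher and 16% lower. Foxp3 itself chose the cells, and its 1.77 to 3.20 UMIs per 10000 in the AKI and CKD libraries are a description.

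The transcription factor partners come first. Ikzf2, a factor known to stabilise the regulatory T cell state, stood in Foxp3-positive cells at 7.08 per 10000 in the control, 5.31 and 6.32 in AKI, and 4.46 and 4.94 in CKD. In other T cells its level was 0.695, 0.897, 0.918, 0.696 and 0.802 per 10000 in the same order, so the cell groups did not overlap. The log2 fold change was 2.58 (SE 0.068, edgeR adjusted p = 4.4e-15), and between 79.1 and 87.6% of gated cells outside the control held an Ikzf2 UMI. Ikzf4, a co-repressor partner of Foxp3, was sparser, at 0.429 per 10000 in the control, 0.696 and 0.816 in AKI, and 0.354 and 0.466 in CKD, against 0.0183 to 0.0960 in other T cells. Its log2 fold change was 3.16 (SE 0.11, edgeR adjusted p = 2.0e-13), although 2 UMIs stood behind the control value.

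The secreted members differed more between libraries. Areg stood at 4.50 per 10000 in the Foxp3-positive cells of the control, 2.40 and 2.48 in AKI, and 1.51 and 1.82 in CKD, against 0.631, 0.337, 0.373, 0.268 and 0.216 in other T cells. The lowest gated library was thus well above the highest value of other T cells, and the log2 fold change was 2.71 (SE 0.087, edgeR adjusted p = 6.5e-14). The control value rested on 21 UMIs in 16 cells, with a Poisson interval of 2.79 to 6.88. Il10 stood at 3.00 per 10000 in the control (14 UMIs), 1.14 and 1.03 in AKI, 0.218 in CKD 1 and 1.08 in CKD 2, so CKD 1 lay far below the other gated groups. Other T cells held 0.0343 to 0.146 per 10000, and the log2 fold change was 3.04 (SE 0.17, edgeR adjusted p = 1.0e-10).

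Among the receptors, Il2ra, the high-affinity subunit for IL-2, was the member with the largest fold. Its level in Foxp3-positive cells was 1.45 and 1.60 per 10000 in AKI and 0.920 and 1.07 in CKD, against 0.0797 to 0.162 in other T cells of all libraries, and the log2 fold change was 3.57 (SE 0.091, edgeR adjusted p = 3.1e-15). In the control it was 0.214 per 10000, from 1 UMI, and its interval reached the other T cells. Il1rl1, the IL-33 receptor, stood at 0.858 per 10000 in the control (4 UMIs), 0.583 and 0.442 in AKI, and 0.191 and 0.360 in CKD, against 0.0252 to 0.0823 in other T cells. Its log2 fold change was 3.44 (SE 0.14, edgeR adjusted p = 8.6e-13), and 11.8 to 20.1% of gated AKI and CKD cells held its UMI compared with 0.861 to 2.17% of other T cells.

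Tnfrsf9, which encodes the co-stimulatory receptor 4-1BB, stood at 1.07 per 10000 in the control, 2.01 and 2.04 in AKI, and 1.23 and 1.46 in CKD, against 0.0618 to 0.308 in other T cells. Its log2 fold change was 2.73 (SE 0.080, edgeR adjusted p = 1.9e-14). Klrg1, an inhibitory receptor of differentiated lymphocytes, was at 0 UMIs in the 16 control cells, a count that allows a level of up to 0.643 per 10000 (3 UMIs, while the exact Poisson interval drawn in the plot of levels ends at 0.791), and stood at 0.985 and 0.754 in AKI and 0.613 and 0.918 in CKD. Other T cells held 0.0818 to 0.135 per 10000, and the log2 fold change was 2.89 (SE 0.11, edgeR adjusted p = 4.2e-13). Both receptors were therefore separated between the cell groups in each AKI and CKD library.

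Neb, the muscle filament gene, was higher as well. Its level in Foxp3-positive cells was 0.429 per 10000 in the control (2 UMIs), 0.836 and 0.803 in AKI, and 0.320 and 0.432 in CKD, against 0.0137 to 0.0778 in other T cells. The log2 fold change was 3.401 (SE 0.11, edgeR adjusted p = 5.0e-14), and 15.03 to 34.5% of gated AKI and CKD cells held a Neb UMI. As a background for such shares, endothelial-like cells held a Neb UMI in 0 to 0.487% and an Il1rl1 UMI in 0 to 0.487% of cells. The other T cells leave out an unnamed T cell cluster of low UMI content, in which Neb reached 0.984 and 1.09 per 10000 in AKI.

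**Figure D2:**
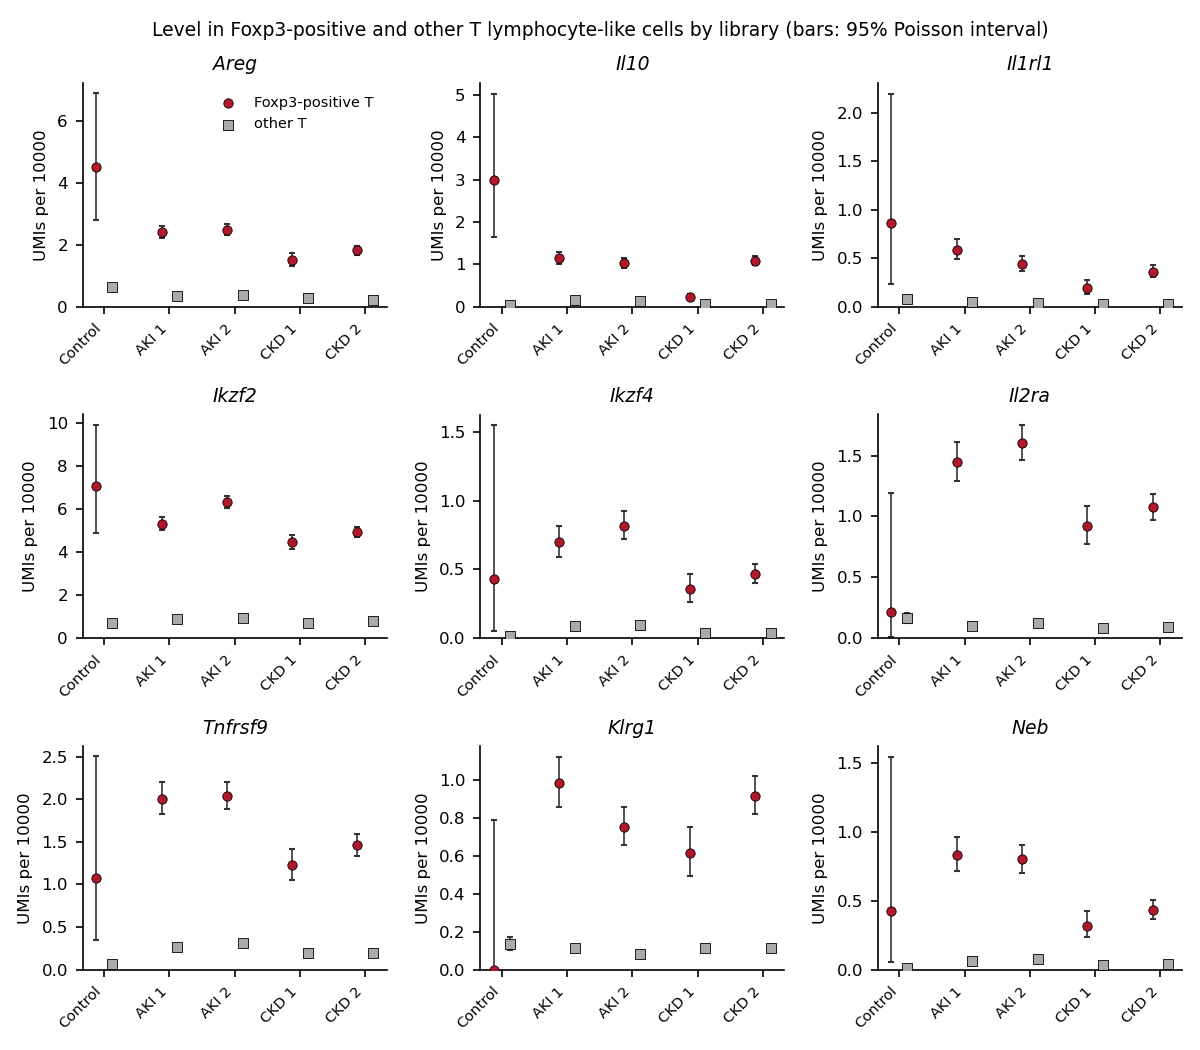
Level of 9 members (vertical axes, UMIs per 10000) in Foxp3-positive (red circles) and other T lymphocyte-like cells (grey squares) of each library (horizontal axes). Bars are 95% Poisson intervals for counting error, wide in the control with its 16 gated cells. In the AKI and CKD libraries every red circle lies above the grey square of its library.

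All these calls held in every alternative that was run for them. Compared only with other T cells that had a Cd4 and no Cd8a or Cd8b1 UMI, the log2 fold changes ran from 2.10 for Areg to 3.48 for Klrg1. The part of all transcripts of a member that came from gated cells differed between libraries. In the AKI and CKD libraries it ran from 8.74% (Il10 in CKD 1) to 52.9% (Klrg1 in AKI 2) over the 9 members, and in the control from 0% (Klrg1) to 43.8% (Il10), with 0.877% for Il2ra, 2.53% for Ikzf2 and 4.31% for Areg. Of all Il2ra UMIs in kept cells, 48.0 and 52.7% in AKI and 26.4 and 40.6% in CKD came from Foxp3-positive cells. For Neb the shares were 45.6, 49.6, 33.6 and 46.6%, whereas for Areg they were 20.4, 30.5, 13.6 and 28.7%.

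The members were also found together in single cells. A Foxp3-positive cell held UMIs of 2.19 of the 9 other members on average in the control, 3.36 and 3.51 in AKI, and 2.90 and 3.74 in CKD, against 0.315 to 0.601 in other T cells. At least 3 of the 9 were seen in 66.5 and 66.8% of gated AKI cells and 54.3 and 73.6% of gated CKD cells, compared with 1.83 to 4.38% of other T cells. Thinned to 1500 UMIs, with the gate applied after thinning, the shares were 27.8, 29.6, 20 and 30.5% against 0.550 to 2.76%, so the cell groups stayed apart in each library.

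The lists of related genes, drawn up to place the members in their pathways, moved in several directions in the same comparison. Of 20 core regulatory T cell genes, 15 were higher and 0 lower, with a median log2 fold change of 1.45 against -0.01 over all genes tested. Lrrc32 (GARP, which holds latent TGF-beta on the cell surface) stood at 0.5998 to 1.08 per 10000 in gated AKI and CKD cells against 0.0366 to 0.112 in other T cells, a log2 fold change of 3.59. Capg (2.13), Swap70 (2.53) and Tnfrsf4 (2.00, the co-stimulatory receptor OX40) were also higher on that log2 scale. Of 28 genes linked to regulatory T cells of tissues, 14 were higher and 10 lower, with a median of 0.40. In that list Dgat2 (log2 fold change 2.83) and Rgs2 (1.03) were higher, whereas Cxcr6, a homing receptor of resident T cells, and Cd69, a retention marker, were lower (-2.11 and -1.34).

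Pathway partners gave smaller differences than the members themselves. In the IL-2 pathway, 5 of 11 genes were higher and 2 lower: Stat5a, which relays the signal, had a log2 fold change of 0.84 and Cish, a feedback inhibitor, 0.39, while Il2 itself (-1.86) and Socs1 (-0.79) were lower. Il2 stood at 0.0167 to 0.0552 per 10000 in gated AKI and CKD cells and at 0.107 to 0.159 in other T cells. In the IL-33 pathway, 1 of 7 genes tested was higher (Irak1, 0.31) and 2 were lower (Il13, -1.96, and Irak4, -0.74). In the IL-10 pathway, 1 of 6 was higher (Stat3, 0.45) and 3 were lower (Socs3, -1.15, Jak1, -0.49, and Il10rb, -0.41).

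The Ikaros family and its partners, apart from the member genes, had 0 of 10 genes higher and 5 lower by edgeR, among them Runx3 (-1.16), Ikzf1 (-0.96), Bach2 (-1.26) and Ikzf3 (-0.24). Of 6 EGF receptor ligands and receptors tested, 0 were higher and 1 was lower (Hbegf, -0.49), and the other 5 of the list did not pass the filter on low counts. Among partners of 4-1BB and KLRG1, 3 of 7 were higher and 2 lower, with Nfkb2 (0.46) and Traf1 (0.30) in the former and Tnfsf9 (-1.42) and Cdh1 (-1.41) in the latter.

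Markers of T cell state separated the groups further. Of 11 effector and cytotoxic genes, 0 were higher and 10 lower, with a median log2 fold change of -2.54. Gzma (-3.03), Nkg7 (-2.54), Ifng (-2.27) and Ccl5 (-1.36) were named by the lowest p. Naive and central memory genes were mixed, with 3 of 9 higher and 5 lower, as Ccr7, a lymph node homing receptor, was higher (2.45) and Tcf7 (-2.31), Dapl1 (-4.99) and Klf2 (-1.36) were lower. All 10 cell cycle genes were higher, with a median of 0.74 (Ube2c, 0.83, Cdk1, 0.92, Top2a, 0.73, Mki67, 0.76), and without cells of the cycling cluster all 9 members were still called higher.

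Transcripts of other cell types moved with the gate too. Of 4 B lymphocyte transcripts tested, 3 were higher (Igkc, 3.06, Ighm, 1.98, and Cd79b, 1.95), and the list of 8 summed to 4.77 to 6.86 per 10000 in gated cells against 0.921 to 1.23 in other T cells. Cd79a, a defining B cell gene, stayed at 0 to 0.0045 per 10000 in gated cells. Macrophage transcripts had 1 of 10 higher (Ctss, 0.41) and 8 lower, among them Lyz2 (-0.64), C1qa (-0.69) and Apoe (-0.53), and proximal tubule transcripts had 0 of 9 higher and 7 lower, led by Gpx3 (-0.59), Slc34a1 (-0.50), Acsm2 (-0.52) and Lrp2 (-0.79).

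Of the 11 dissociation stress genes, 0 were higher and 10 lower (Fosb, -1.51, Ier2, -1.07, Fos, -1.15, Egr1, -1.15). Of group 2 innate lymphoid and mast cell transcripts, Il17rb was higher (2.68) and Calca lower (-1.07), and the other 7 did not pass the filter on low counts. Il17rb remained under 0.08 per 10000 in every gated group. The part of these transcripts in the member results was not tested.

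Elsewhere in the kidney, the members were mostly low, with a few exceptions. The plot of mean levels by cell class shows Foxp3-positive cells highest by median for 7 of the 9 members other than Foxp3, over libraries with at least 20 cells of a class. Areg and Il1rl1 were higher in a cluster of 338 cells. That cluster was led by Il17a, Trdc and Il7r, stayed unnamed because markers of another class led it, and lay outside the T lymphocyte-like cells. Its Areg level was 4.86 per 10000 in the control, 2.97 and 1.79 in AKI, and 3.67 and 3.34 in CKD, a range of 1.79 to 4.86 that overlapped the 1.51 to 2.48 of Foxp3-positive cells. Its Il1rl1 level, at 0.313 to 1.03, and its Il2ra level, at 0.704 to 1.10, also overlapped the Foxp3-positive ranges.

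Other classes with single members are listed by their ranges over libraries with at least 20 cells of the class. Ikzf2 followed in an unnamed T cell cluster of low UMI content (0.468 to 3.00 per 10000) and in NK-like cells (1.54 to 3.03), both below every Foxp3-positive value. In that low-UMI cluster Neb stood at 0.984 and 1.09 in AKI, above the 0.836 and 0.803 of Foxp3-positive cells. In CKD it stood there at 0 and 0.219, below them, and in the control at 0. Il10 in macrophage-like cells, at 0.00670 to 0.476, overlapped Foxp3-positive cells. Tnfrsf9 followed in NK-like cells (0.218 to 0.671) and mature dendritic-like cells (0.170 to 0.845), and Il2ra in the latter (0.297 to 0.818). Ikzf4 was found outside lymphocytes, in thin limb-like cells (0.146 to 0.568) and podocyte-like cells (0.294 to 0.372), ranges that overlapped that of Foxp3-positive cells. Areg also occurred in urothelium-like cells (0.0827 to 1.57), thin limb-like cells (0.00421 to 0.818) and dendritic-like cells (0.126 to 1.06), and their ranges overlapped one another. The urothelium-like range also overlapped that of Foxp3-positive cells. It leaves out CKD 2, where 11 urothelium-like cells held 88 Areg UMIs. Klrg1 stood at 0.0755 to 0.148 per 10000 in Cd8-side T cells without Foxp3, 0.0696 to 0.463 in NK-like cells and 0.0391 to 0.274 in the Trdc-led cluster, all below every AKI and CKD value of gated cells.

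**Figure D3:**
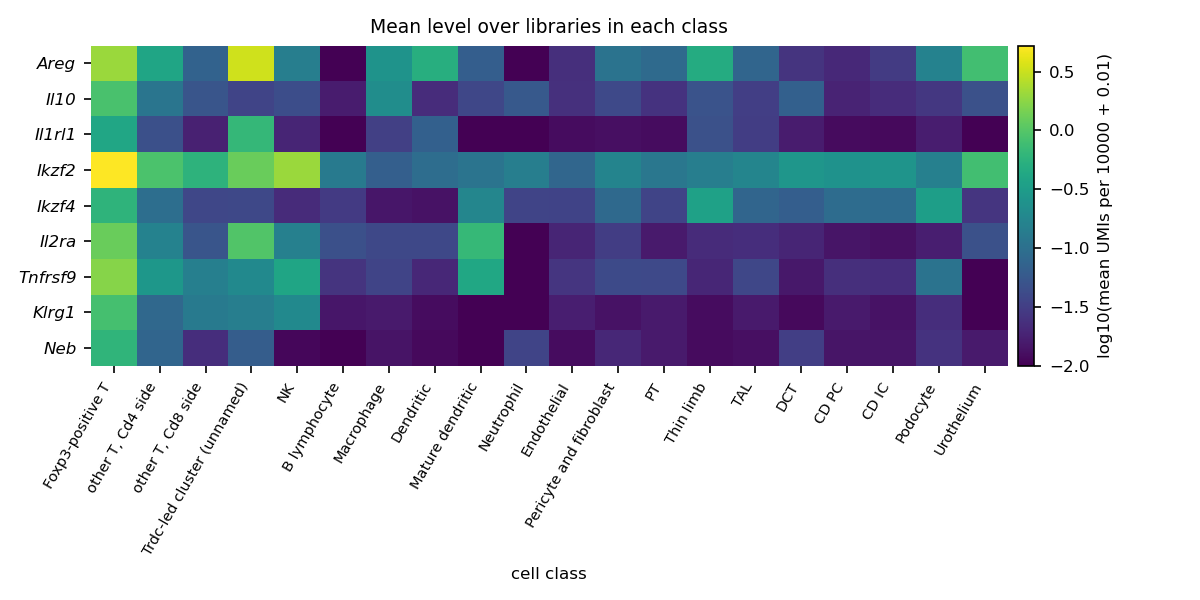
Mean level over libraries (colour, log10 of UMIs per 10000 plus 0.01) of 9 members (rows) in each cell class (columns). Yellow is high and dark purple low. Foxp3-positive T cells are bright in every row, Areg and Il1rl1 are also bright in the Trdc-led cluster, Ikzf2 in NK-like cells, and Il2ra and Tnfrsf9 in mature dendritic-like cells.

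The known partners of the members were found in other cells. Il33, the ligand of the receptor encoded by Il1rl1, stood at 1.06 to 3.61 per 10000 in pericyte and fibroblast-like cells and 0.385 to 0.804 in endothelial-like cells, and at 0 to 0.00682 in gated AKI and CKD cells. Egfr, the receptor of amphiregulin, stood at 0.276 to 0.645 in pericyte and fibroblast-like cells, 0.189 to 0.622 in thin limb-like cells and 0.380 to 0.494 in podocyte-like cells. Tnfsf9, the ligand of 4-1BB, was highest in mature dendritic-like cells (1.85 to 3.81), and Cdh1, a cadherin that KLRG1 binds, in principal cells of the collecting duct (3.15 to 4.72). Il2 was highest by median in T cells without a Foxp3 UMI, at 0.107 to 0.240 per 10000 over all of them.

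CKD and AKI were then compared within Foxp3-positive cells to ask whether the members keep their levels as injury turns chronic. All 9 fold changes were below 0, and 5 members (Ikzf4, Areg, Il2ra, Tnfrsf9 and Neb) were lower in CKD by edgeR with adjustment over 9341 genes. In that test 3.53% of all genes were called, 2.44% lower and 1.09% higher. The calls rested on 2 libraries against 2 and changed with the processing, as given after the values.

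Neb had the largest fold change of the 9 with all 4 libraries in the fit. It averaged 0.819 ± 0.0234 per 10000 in AKI and 0.376 ± 0.0792 in CKD (SD, n = 2 each), a log2 fold change of -1.09 (SE 0.18, edgeR adjusted p = 0.012). Ikzf4 averaged 0.756 ± 0.0848 in AKI and 0.410 ± 0.0788 in CKD, with -0.86 on the log2 scale (SE 0.18, edgeR adjusted p = 0.026). For both genes the 2 CKD libraries lay below the 2 AKI libraries, as they did for 7 of the 9 members and for 24.5% of all 9341 genes tested.

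Il2ra averaged 1.52 ± 0.111 per 10000 in AKI and 0.997 ± 0.109 in CKD (SD, n = 2 each), a log2 fold change of -0.61 (SE 0.14, edgeR adjusted p = 0.036). Tnfrsf9 averaged 2.02 ± 0.0225 and 1.34 ± 0.166, with -0.59 (SE 0.13, edgeR adjusted p = 0.038). Areg averaged 2.44 ± 0.0562 and 1.66 ± 0.214, with -0.56 (SE 0.13, edgeR adjusted p = 0.045). The groups did not overlap for these 3 genes, nor for Ikzf2 and Il1rl1, which were not called.

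For the remaining members, Il1rl1 had a log2 fold change of -0.78 (SE 0.25, edgeR adjusted p = 0.12), Ikzf2 -0.32 (SE 0.12, adjusted p = 0.17) and Klrg1 -0.14 (SE 0.20, adjusted p = 0.75). Il10 had -0.59 (SE 0.40, edgeR adjusted p = 0.47), and 1 library decided it. Without CKD 1 its log2 fold change was 0.01 and without CKD 2 it was -2.35. The level of Foxp3 in gated cells, 2.85 and 3.20 per 10000 in AKI and 1.77 and 2.20 in CKD, was set by the gate and is a description.

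Several other measures moved with the phase in these cells. Gated cells had medians of 4421 and 4218 UMIs in AKI and 5482 and 6858 in CKD. The cluster led by Tnfrsf4 and Ctla4 held 78.8 and 81.6% of gated cells in AKI and 57.5 and 68.2% in CKD. The part of this make-up of the gate in the member changes was not tested. The 10 cell cycle genes summed to 14.1 and 15.2 per 10000 in AKI and 28.8 and 22.7 in CKD, and 9 of 10 were higher in CKD (Birc5, 0.95, Ube2c, 1.15, Stmn1, 0.64, and Pclaf, 0.76 on the log2 scale). Macrophage transcripts summed to 4.40 and 6.30 per 10000 in AKI and 2.20 and 1.69 in CKD, and 5 of 9 were lower in CKD (Apoe, -2.82, C1qb, -2.25, C1qa, -2.12, and Lyz2, -2.20). Dissociation stress genes summed to 47.7 and 48.1 per 10000 in AKI and 37.1 and 32.8 in CKD, with 4 of 11 lower.

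The calls were read against some of those measures. Without cells of the cycling cluster, 1 member (Neb) was still called lower and all 9 fold changes remained below 0. When every cell was thinned to 1500 UMIs before the gate, 0 of 2869 genes tested were called, 269 had an unadjusted p under 0.05 by edgeR, and 7 of 9 member fold changes were below 0. With the gate kept as it was and only the cells thinned, a Neb UMI was seen in 17.2 and 14.5% of AKI cells and 7.33 and 8.39% of CKD cells. An Areg UMI was then seen in 20.4 and 24.4% of AKI cells and 15.3 and 18.8% of CKD cells. Of the 9 member fold changes, 8 were below 0 without AKI 1, 9 without AKI 2, 7 without CKD 1 and 9 without CKD 2. Each of those fits leaves 1 library in a group, whose spread is assumed to be that of the other group. Their member calls changed with the library left out and are not given. With at least 2 Foxp3 UMIs required, 2 members were called (Ikzf4 and Neb), and with doublets kept or without cells holding a Cd8a or Cd8b1 UMI, 3 (Ikzf4, Il2ra and Neb), so Areg and Tnfrsf9 were lost in all of these. DESeq2 called the same 5 members as edgeR.

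Some other genes of regulatory T cells were lower in CKD, several of them in T cells without a Foxp3 UMI as well. Of 20 core genes, 5 were lower and 0 higher, with a median log2 fold change of -0.36 against -0.00 over all genes tested. Fgl2, an immunosuppressive secreted protein, stood at 3.04 and 3.23 per 10000 in AKI and 0.954 and 1.56 in CKD (-1.30), Itgae at 1.13 and 1.36 and at 0.5998 and 0.608 (-1.07), and Tigit and Lrrc32 were lower by log2 fold changes of -1.73 and -0.79. Of 28 tissue regulatory T cell genes, 2 were lower (Rgs2, -0.61, and Rgs1, -0.82) and 0 higher, with a median of -0.23. In the pathway lists 1 gene was called, Foxo1 of the Ikaros list (-0.63), and 0 were called among the IL-2 (10 tested, Cish, -0.41, adjusted p = 0.11), IL-10 (6 tested, Il10rb, -0.91, adjusted p = 0.14), IL-33 (6 tested, Irak2, -0.53, adjusted p = 0.32), EGF (3 tested, Adam17, 0.58, adjusted p = 0.15) and 4-1BB and KLRG1 partners (7 tested, Birc3, -0.51, adjusted p = 0.19). Of 8 effector genes tested, Ccl4 (-1.34) and Ccl5 (-0.72) were lower, and of the naive, proximal tubule, B lymphocyte, and group 2 innate lymphoid and mast lists 0 genes were called by edgeR.

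The same phases were compared in T cells without a Foxp3 UMI. These share their libraries with the comparison above, and their values are set beside it. They include cells of the cluster led by Tnfrsf4 and Ctla4 in which no Foxp3 UMI was seen. That cluster made up 8.70 and 12.2% of T cells in AKI and 3.87 and 5.95% in CKD. Of its cells, 50.5 and 55.1% in AKI and 46.3 and 63.0% in CKD were Foxp3-positive. The part of its other cells in the member changes, and in the difference between cell groups, was not tested. Of the 9 members, 5 were lower in CKD by edgeR (Ikzf4, Areg, Il10, Tnfrsf9 and Neb) and 0 were higher, where 9.74% of 13509 genes tested were called, 2.32% lower and 7.42% higher. Ikzf4 averaged 0.0900 ± 0.00841 per 10000 in AKI and 0.0369 ± 0.00351 in CKD (SD, n = 2 each), a log2 fold change of -1.29 (SE 0.17, edgeR adjusted p = 0.024). Il10 averaged 0.142 ± 0.00524 and 0.0631 ± 0.0110, with -1.16 (SE 0.17, edgeR adjusted p = 0.027).

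In those cells Neb had a log2 fold change of -1.02 (SE 0.20, edgeR adjusted p = 0.046), Areg -0.57 (SE 0.11, adjusted p = 0.046) and Tnfrsf9 -0.56 (SE 0.11, adjusted p = 0.042). Il1rl1 (-0.58), Il2ra (-0.40), Ikzf2 (-0.28) and Klrg1 (0.21) did not pass. Cell cycle genes were higher in CKD in 10 of 10 cases with a median of 1.48. Of 11 effector and cytotoxic genes, 0 were higher and 5 lower, among them Ccl4 (-1.11) and Prf1 (-1.27). In the pathway lists Il13 was higher (2.59), and Il10ra (-0.47), Socs1 (-0.64), Il2 (-0.52), Foxo3 (-0.60) and Bach2 (-0.82) were lower. Of 19 core regulatory genes tested in these cells, 4 were lower (Lrrc32, -1.33, Fgl2, -1.38, Itgae, -0.96, and Entpd1, -0.71), and of 28 tissue regulatory genes 3 were lower, with Rgs2 (-0.73) and Rgs1 (-0.59) among them, and 2 higher (Il1r2, 1.23, and S100a4, 0.72). Dissociation stress genes summed to 79.96 and 86.2 per 10000 in AKI and 50.2 and 49.7 in CKD, with 6 of 11 lower, and of 10 macrophage transcripts Apoe was lower (-2.57). Their part in the member results was not tested. With the cycling cluster, AKI 1 or AKI 2 left out, 0 genes were called by edgeR (2163, 1910 and 1873 had an unadjusted p under 0.05), whereas DESeq2 on all cells called the same 5 members.

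**Figure D4:**
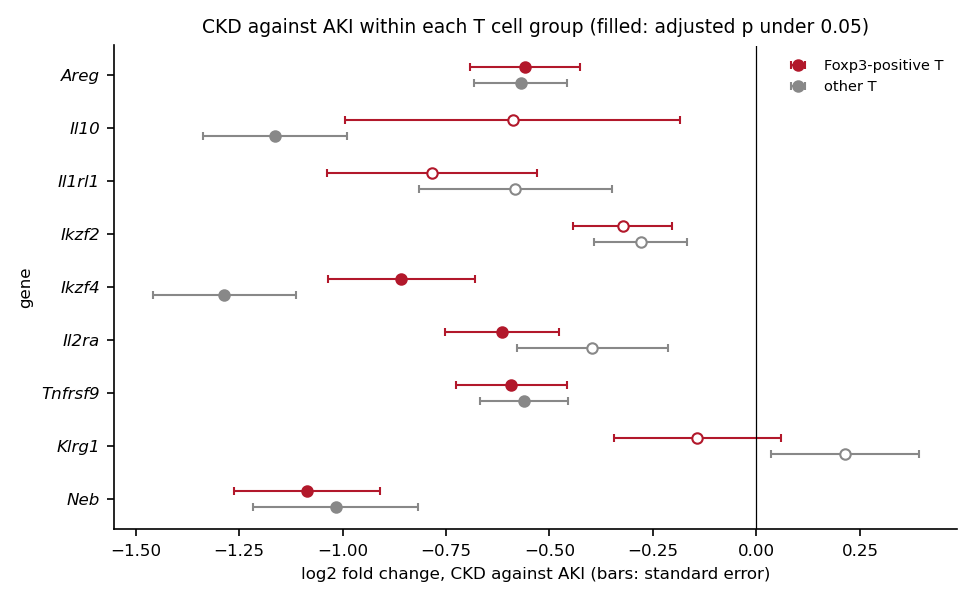
Log2 fold change of CKD against AKI (horizontal axis) for 9 members (vertical axis) in Foxp3-positive (red) and other T lymphocyte-like cells (grey), with bars of 1 standard error. Filled points have an adjusted p under 0.05 by edgeR. All 9 red points lie below 0, with Neb lowest at -1.09, and 8 of 9 grey points do, with Ikzf4 lowest at -1.29.

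Whether the change differed between the cell groups was tested by the interaction of phase and cell group with the library as a block. By edgeR 0 of 9 members passed, 3 (Il10, Ikzf4 and Klrg1) had an unadjusted p under 0.05, and DESeq2 called 0. Of 13070 genes 2.05% were called by edgeR, 0.398% higher and 1.65% lower. On simulated data this test recovered 45.5% of log2 changes of 1, so differences of the size seen here could be missed. The difference of log2 fold changes was 0.52 for Il10 (SE 0.18, edgeR adjusted p = 0.10), 0.42 for Ikzf4 (SE 0.20, adjusted p = 0.41) and -0.36 for Klrg1 (SE 0.17, adjusted p = 0.39), and between -0.25 and 0.05 for the other 6. Il10 again turned on the CKD libraries, with a difference of 1.00 without CKD 1 (called) and -0.96 without CKD 2. Without cells holding a Cd8a or Cd8b1 UMI the Il10 difference was 0.73 and was called with all libraries kept (edgeR adjusted p = 0.046). For Klrg1 the difference was -0.75 without CKD 2 (called), 0.32 after thinning and 0.27 without cells holding a Cd8a or Cd8b1 UMI.

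Genes of several lists were called in that test, in both directions. Cell cycle genes had a smaller rise in Foxp3-positive cells, with 8 of 10 lower and a median difference of -0.66 against -0.08 over all genes. Of the core regulatory genes 5 of 20 were lower, among them Izumo1r (-0.70), Icos (-0.64), Tnfrsf4 (-0.45) and Tnfrsf18 (-0.39). Of 28 tissue regulatory genes 4 were lower (Ccr2, -0.95, Rora, -0.48, Maf, -0.47, and Il18r1, -0.68) and 1 higher. Effector and cytotoxic genes went the other way, with 4 of 11 higher (Nkg7, 0.74, Eomes, 1.76, Tbx21, 0.89, and Ifng, 0.44) and 0 lower. Of 5 B lymphocyte transcripts tested, Igkc was higher (1.04) and Ighm lower (-0.46). Junb (0.38, stress), Calca (2.12, group 2 innate lymphoid and mast) and Ccr7 (-0.48, naive) were the only genes called in their lists.

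Outside T cells, 38 pairs of a member and a named class passed the filter on low counts, and 3 were called in CKD against AKI, all of them lower in macrophage-like cells. Over those classes 3.24% of 118508 pairs of a gene and a class were called. In macrophage-like cells 29.1% of 12720 genes were called, 13.8% higher and 15.4% lower, so the 3 members stood among many. Il10 stood at 0.388 and 0.476 per 10000 in AKI macrophage-like cells and 0.0873 and 0.0844 in CKD, a log2 fold change of -2.49 (SE 0.15, edgeR adjusted p = 6.1e-04). Il2ra stood at 0.0416 and 0.0436 and at 0.0162 and 0.0135, with -1.68 (SE 0.33, adjusted p = 0.013), and Areg at 0.471 and 0.336 and at 0.206 and 0.0959, with -1.59 (SE 0.35, adjusted p = 0.019). Macrophage-like cells gave 33.0 and 46.8% of all Il10 UMIs in AKI and 33.9 and 15.04% in CKD. Foxp3-positive cells gave 24.1 and 23.3%, and 8.74 and 46.6%. Such shares also depend on the cells kept, which were 959 and 1339 macrophage-like cells in AKI and 2495 and 807 in CKD.

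Within Foxp3-positive cells, those with an Il1rl1 UMI were compared with those without to ask which members go with the IL-33 receptor. Of 8 members tested, 4 were higher in Il1rl1-positive cells (Areg, Klrg1, Il2ra and Tnfrsf9) and 0 lower. The test was edgeR's with the library as a block over AKI 1, AKI 2 and CKD 2, which had 60, 76 and 60 positive cells, as CKD 1 had 18 and the control 2. Of 7705 genes tested, 0.493% were called, 0.26% higher and 0.234% lower.

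Areg stood at 3.36 per 10000 in Il1rl1-positive and 2.17 in Il1rl1-negative cells of AKI 1, 4.86 and 1.89 in AKI 2, 2.51 and 1.35 in CKD 1, and 2.80 and 1.48 in CKD 2. It was higher in 4 of 4 libraries, with a log2 fold change of 0.99 (SE 0.12, edgeR adjusted p = 1.8e-06). Klrg1 stood at 1.52 and 0.852, 1.16 and 0.653, 1.35 and 0.492, and 1.55 and 0.700 per 10000 in the same order, with 0.95 (SE 0.14, edgeR adjusted p = 7.6e-05). The positive cells were thus higher in every library for both genes.

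Il2ra stood at 2.27 and 1.24 per 10000 in AKI 1, 2.40 and 1.40 in AKI 2, 1.304 and 0.857 in CKD 1, and 1.49 and 0.932 in CKD 2, a log2 fold change of 0.76 (SE 0.13, edgeR adjusted p = 2.8e-04). Tnfrsf9 stood at 2.77 and 1.82, 2.90 and 1.82, 1.06 and 1.25, and 1.71 and 1.38 per 10000, with 0.52 (SE 0.12, edgeR adjusted p = 0.027), and was higher in 3 of 4 libraries, not in CKD 1. The call of Tnfrsf9 was lost in 7 of the 13 alternatives, among them DESeq2 and the fit with CKD 1 added. Il2ra was lost in 2 of the 13, and Areg and Klrg1 in 1. Without the library as a block, 0 members were called. Ikzf2 (0.31, SE 0.089, adjusted p = 0.13), Ikzf4 (0.21), Neb (0.20) and Il10 (-0.05) were not called.

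Depth also differed between these cells, with medians of 5396.5 and 4148 UMIs in AKI 1, 5348.5 and 4050 in AKI 2, 7343.5 and 5436 in CKD 1, and 9285 and 6502 in CKD 2. Thinned cells were too few to fit, so the part of depth was not tested. Effector and cytotoxic genes were lower in Il1rl1-positive cells in 4 of 6 cases (Gzma, -3.94, Ccl4, -1.26, Nkg7, -1.14, Ccl5, -0.46), with a median log2 fold change of -0.96 against -0.00. Rora, a factor of tissue regulatory and innate lymphoid cells, was higher (0.54), as was Tnfrsf4 (0.45), whereas Gzmb (-1.12) and the stress gene Fos (-0.46) were lower. Of the other lists 0 genes were called by edgeR.

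**Figure D5:**
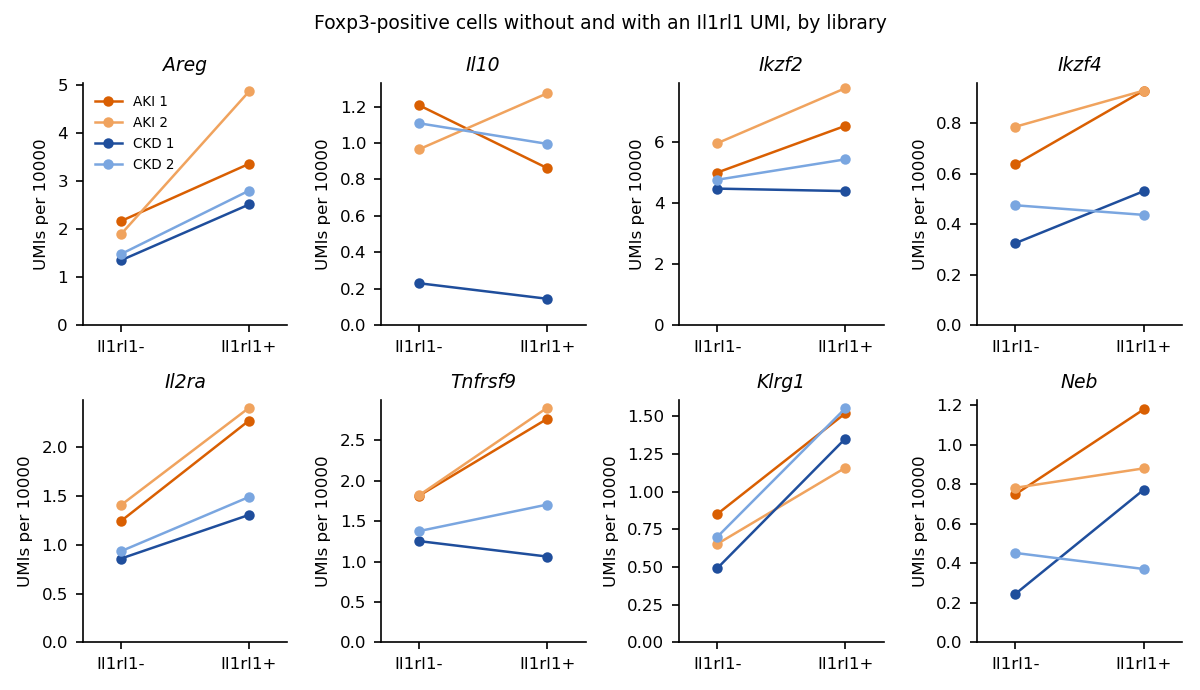
Level of 8 members (vertical axes, UMIs per 10000) in Foxp3-positive cells without (left) and with (right) an Il1rl1 UMI, 1 line per library. The lines of Areg, Il2ra and Klrg1 go up in all 4 libraries and that of Tnfrsf9 in 3, while Il10 goes up in 1.

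The genes whose levels ran most like each member over 19 cell classes were found by Pearson's r of mean log2 levels, as a description over classes that share libraries and depth. Foxp3 was most like Neb (r = 0.972), Il1rl1 (0.922) and Dnajb13 (0.909), a profile that the gate itself sets, since other T cells hold 0 Foxp3 UMIs. Unnamed clusters were not among the classes, and in the low-UMI T cell cluster Neb reached 0.984 and 1.09 per 10000 in AKI where Foxp3 was at 0.0480 and 0.147. Il2ra was most like Tnfrsf9 (0.931) and Tnfrsf4 (0.909), Klrg1 like Dnajb13 (0.947) and Izumo1r (0.934), and Il10 like Neb (0.920). Areg was most like genes of general function, Phf5a (0.910), Eif5a (0.895) and Rfc2 (0.884), and Ikzf2 like Rab19 (0.928). Ikzf4 had the weakest likeness of the 10, to Dusp14 (0.863), a gene highest in podocyte-like cells.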

How the data were processed

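Single-cell suspensions of mouse kidney were run as Chromium 3′ libraries. The authors deposited UMI counts per gene and barcode, made with Cell Ranger and STAR. The submitters' processing notes name Cell Ranger 7.2.0 and GRCm39, while the matrix headers name Cell Ranger 5.0.0 and the control gene list names mm10, so the version and build behind each count could not be settled. Removal of ambient RNA with CellBender and of doublets with scDblFinder, which the study's methods describe, is not part of the deposited counts and was not run. Instead, cells with the highest simulated doublet score were removed in each library, 672 to 2984 cells, in proportion to its barcodes.

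Barcodes with at least 200 genes and at most 30% mitochondrial UMIs were kept. They were clustered (3000 variable genes, 40 principal components corrected by library, 15 neighbours, Leiden at resolution 1.5, in Python 3.11.15 with leidenalg 0.10.2, igraph 0.11.9 and scikit-learn 1.9.0) and named from at least 3 detected markers in clusters of at least 50 cells. Details of the naming rule were settled after the clusters had been seen: leading genes were computed against clusters of another best class, and the name of group 2 innate lymphoid cells was refused where Cd3e was at or above 1 UMI per 10000. Class names are therefore rebuilt, and each reads as X-like.

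Counts were summed per library and cell group, groups under 20 cells were left out of tests, and edgeR 4.0.16 in R 4.3.3 was fitted across all genes (TMM scaling, filter on low counts, quasi-likelihood test, Benjamini-Hochberg threshold 0.05). The SE is the size of the log2 fold change divided by the square root of F. Each test was run on simulated data with known changes. Log2 changes of 1 were recovered in 82.8% of cases for Foxp3-positive against other T cells. For CKD against AKI, recovery was 67.7% in Foxp3-positive cells, 39.4% in other T cells and 45.5% for the difference between these. In the Il1rl1 split it was 68.8%. Of unchanged genes, 0.041 to 0.179% were called. Poisson and binomial intervals are exact at 95% and cover counting error only. DESeq2 1.42.0, other filters, other gates, thinning, left-out libraries and the replicate block were alternatives. Fits without cycling cells, without cells holding a Cd8a or Cd8b1 UMI, with the control's 16 gated cells and with CKD 1 in the Il1rl1 split were added after seeing the data. The 10 members and all gene lists were chosen with earlier results of these data known. From each list at most 4 genes with the lowest p among those called were named, or the 1 with the lowest p where none was. Likeness used log2 of UMIs per 10000 plus 0.1, for genes reaching 0.2 in a class, over classes that had been named.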

Additional observations from a re-analysis of the deposited data

How the results depend on the processing

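Of 144 member values for Foxp3-positive against other T cells, all 144 kept direction and call. The other comparisons were less stable: 91 of 126 member values kept both for CKD against AKI in Foxp3-positive cells, 100 of 126 in other T cells, 90 of 117 for the difference between these, and 89 of 104 in the Il1rl1 split. The share difference was -4.89 percentage points over T cells with a Cd4 UMI (-2.60 over all). Genes called between Foxp3-positive and other T cells numbered 1063 thinned to 1500 UMIs and 1773 with no replicate block (4461 in the reported fit). For CKD against AKI in Foxp3-positive cells (330) they numbered 201 with DESeq2, 723 with no filter on low counts, 512 without correction by library, 117 at 2 or more Foxp3 UMIs, 0 thinned (269 at an unadjusted p under 0.05 by edgeR), 534 with the replicate block and 218 to 1283 leaving out 1 library. Thinned, Ikzf2 (0.13) and Klrg1 (0.49) reversed; over left-out libraries Il10 ran from -2.35 to 0.010 and Klrg1 from -0.53 to 0.10. In other T cells (1316) they numbered 2046 with no filter, 109 thinned, 0 without the cycling cluster (2163 unadjusted by edgeR), 93 without Cd8 cells, where Klrg1 reversed (-0.36), and 0 to 4510 leaving out 1 library, the 0 without AKI 1 (1910 unadjusted by edgeR) and without AKI 2 (1873). For the difference between cell groups (268) they numbered 36 with DESeq2, 165 with doublets kept, 146 at 2 or more Foxp3 UMIs, 3 thinned, 91 without Cd8 cells and 71 to 308 leaving out 1 library. Some uncalled differences reversed: at 2 or more UMIs Areg (-0.12) and Tnfrsf9 (0.088); thinned Il1rl1 (0.22), Ikzf2 (0.34), Il2ra (0.33), Tnfrsf9 (0.66), Klrg1 (0.32) and Neb (0.14); without Cd8 cells Il1rl1 (0.23), Ikzf2 (0.18), Il2ra (0.17), Tnfrsf9 (0.28), Klrg1 (0.27) and Neb (0.29); with DESeq2 Ikzf2 (0.0043) and Tnfrsf9 (0.0044); without the cycling cluster Tnfrsf9 (0.060). Over left-out libraries they ran from -0.29 to 0.29 (Areg), -0.12 to 0.058 (Ikzf2), -0.96 to 1.00 (Il10), -0.28 to 0.084 (Neb) and -0.16 to 0.090 (Tnfrsf9). In the Il1rl1 split (38) they numbered 12 with DESeq2, 58 with no filter, 22 at 15% mitochondrial UMIs, 16 at 2 or more Foxp3 UMIs, 87 without the cycling cluster, 16 without Cd8 cells, where Il10 reversed (0.046), 0 with no replicate block (297 unadjusted by edgeR), and 24 to 73 leaving out 1 library, over which Il10 ran from -0.30 to 0.10 and Neb from -0.023 to 0.40. Member calls in other classes (3) numbered 6 with no filter, 1 at 15% mitochondrial UMIs and 1 to 13 leaving out 1 library. The cause of these moves was not tested. The replicate numbers of AKI and CKD are only numbers (correlation of deviations 0.0365 in Foxp3-positive and 0.275 in other T cells, 2 pairs). With that replicate block the 5 member calls in Foxp3-positive cells stayed, and in other T cells Areg was lost, leaving 4. The thinned Il1rl1 split could not be fitted. Depth limits the control most, with 16 gated cells.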
